A study of Mus musculus with 16 samples.

Results

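Transcript levels of 10 mouse genes of DNA methylation and Polycomb repression were followed through 6 groups of sorted muscle cells. The genes were chosen by name: Dnmt1, Dnmt3a, Dnmt3b, Uhrf1, Tet1, Tet2, Ezh1, Ezh2, Suz12 and Eed, out of 24341 gene symbols in each library. The study's title concerns muscle stem cells in a severe Duchenne muscular dystrophy model, and its RNA came from cells taken directly after flow sorting. There were 16 libraries, 3 in each of the groups p53WT, p53KO, p53WT_3dai and p53KO_3dai and 2 in each of p53WT_G2 and p53KO_G2. All mice were C57BL/6, 2 to 3 months old, and either wild type or knockout for p53, the tumour suppressor that Trp53 codes. Cells were kept if they carried CD34 and alpha-7 integrin, and lacked Sca-1, CD45, CD31 and CD11b. The labels do not spell out the suffixes 3dai and G2, how p53 was removed, or any Dmd genotype, so the groups are called by their names. The libraries with no suffix and those of G2 were from hind limb muscles and those of 3dai from the tibialis anterior, so 3dai also differs from the other groups by muscle.

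DNA methylation at CpG sites is written on unmethylated DNA by Dnmt3a and Dnmt3b, and is copied after replication by Dnmt1, which Uhrf1 brings to hemimethylated sites. Tet1 and Tet2 oxidise 5-methylcytosine, a step towards its removal. Polycomb repressive complex 2 (PRC2) methylates lysine 27 of histone H3 through Ezh2 or its paralog Ezh1, and it needs Suz12 and Eed for its activity. In muscle stem cells Ezh2 is known as a gene required for their expansion after injury.

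Values are FPKM (fragments scaled by transcript length and library size), so levels of different genes are compared per length. Differences are given in log2(FPKM + 1), where a low gene's change comes out smaller than it is. A difference was called when limma's adjusted p (Benjamini-Hochberg) lay under 0.05 over the 12954 genes that reached 1 FPKM in at least 2 libraries. Of the 10 genes 9 passed that filter, and Tet1 did not. Nothing in the labels says that replicates came from separate animals, so p-values measure only the spread between these libraries, which may be technical. In bulk samples fewer cells with a transcript and less transcript per cell cannot be told apart.

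The files hold no read totals, so depth is unknown. Each library listed 10240 to 11574 genes at 1 FPKM or more, and correlations within groups were 0.917 to 0.968. Trp53 ranged over 6.34 to 12.2 FPKM in p53KO, 34.9 to 45.7 in p53KO_3dai and 16.7 to 19.8 in p53KO_G2, and over 39.9 to 53.9, 134 to 161 and 59.9 to 71.0 in the wild-type groups, with no overlap at any suffix. The sort genes Cd34 (27.1 to 140.3 FPKM) and Itga7 (81.1 to 317) were present in every library, and Pecam1 (at most 2.09), Itgam (0.286), Ptprc (0.00898) and Ly6a (6.60) were low. Some libraries stood apart from their group, namely p53KO replicate 3, p53KO_3dai replicate 1 and p53KO_G2 replicate 1, and member counts are also given without these 3. All 3 are knockout libraries, and no wild-type library was left out with them. Yet p53WT replicate 2 also differed from its group. Its Pax7 was 9.33 FPKM against 43.1 and 26.0, and its Acta2, a pericyte marker, 576 against 151 and 169. Summed FPKM of 8 pericyte markers were 365 to 957 with no suffix, 19.6 to 53.6 in 3dai and 350 to 744 in G2. Those of 6 Schwann cell markers were 337 to 445, 4.58 to 62.9 and 124 to 138, and those of 9 muscle stem cell markers, Pax7 among them, 648 to 1298, 374 to 403 and 499 to 686. Fibro-adipogenic progenitor markers (6 genes) summed to 1012 to 1319, 101 to 162 and 600 to 722, tenocyte markers (7) to 224 to 442, 36.0 to 85.8 and 230 to 543, and endothelial markers (6) to 16.8 to 27.1, 0.281 to 2.72 and 5.63 to 13.7. Within G2 some sums also differed by genotype. Tenocyte sums were 464 to 543 in p53WT_G2 and 230 to 234 in p53KO_G2. Pericyte sums were 639 to 744 and 350 to 614, and fibro-adipogenic sums 709 to 722 and 600 to 685. The G2 sums of the other marker lists overlapped between genotypes. Macrophage and leukocyte markers (7) summed to at most 16.9 in a library, with Csf1r at 0 in all 16. Of the tenocyte markers 6 fell in 3dai, while Scx rose from 5.21 to 44.8 mean FPKM in p53WT and from 3.75 to 36.3 in p53KO and held most of the 3dai sum. Of the Schwann cell markers 5 fell, while Ngfr rose from 3.05 to 37.1 in p53WT and was not called in p53KO. The muscle stem cell markers did not move together. Itga7, the largest of them in 3dai, was at 81.1 to 92.3 FPKM with no suffix. It was at 181 to 226 in 3dai and 173 to 317 in G2. Calcr was at 30.6 to 72.2 FPKM with no suffix and at most 0.829 in 3dai. Chrdl2 was at 169 to 249 and at most 0.466. Of the fibro-adipogenic progenitor markers Dcn, Gsn and Col3a1 fell in 3dai in each genotype, and Lum fell in p53WT only. Pdgfra and Ly6a were not called, and mean Ly6a was 0.930 FPKM in p53WT and 3.65 in p53WT_3dai, 0.180 in p53KO and 2.40 in p53KO_3dai. Col3a1 was higher in G2 than with no suffix, at 319 against 194 mean FPKM in p53WT and 357 against 231 in p53KO. In 3dai 8 of 8 pericyte markers fell in each genotype, Kcnj8 was at 0, and Pecam1 and Kdr were at 0. Tek held most of the endothelial sum with no suffix, at a mean of 14.6 FPKM in p53WT and 16.5 in p53KO. It fell in 3dai and in G2. Cldn5 went the other way in p53KO_G2, from a mean of 0.225 FPKM in p53KO to 5.59 (limma, adjusted p = 1.19e-04). It was also called higher in p53KO_G2 than in p53WT_G2, at 0.421 (limma, adjusted p = 0.0452). The part of these markers in the results that follow was not tested.

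The stretches of 250 bases before the annotated starts are shown for Dnmt1, Uhrf1 and Ezh2, which rose in 3dai and G2, and for Ezh1 and Tet2, whose group means were lowest in 3dai, so that both kinds can be read side by side. They are RefSeq sequences of build GRCm38.p6, written 5′ to 3′ along the gene, and RefSeq gave 15 starts for the 10 genes. Capitals mark exact matches on either strand to letters known from genes of the cell cycle. The E2F core was searched as TTGGCGC, as the spelling TTGCCGC, as the spelling TTCGCGC and as the spelling TTCCCGC. The cell cycle homology element was searched as TTTGAA and the CCAAT box as its name is spelled.
Dnmt1, first start, chr9:20959889-20960138, minus strand: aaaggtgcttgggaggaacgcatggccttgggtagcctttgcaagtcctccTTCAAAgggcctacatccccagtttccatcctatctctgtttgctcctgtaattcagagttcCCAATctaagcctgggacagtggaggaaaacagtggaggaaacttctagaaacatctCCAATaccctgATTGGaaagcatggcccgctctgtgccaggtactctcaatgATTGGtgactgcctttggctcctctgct
Dnmt1, the second start, chr9:20952980-20953229, minus strand: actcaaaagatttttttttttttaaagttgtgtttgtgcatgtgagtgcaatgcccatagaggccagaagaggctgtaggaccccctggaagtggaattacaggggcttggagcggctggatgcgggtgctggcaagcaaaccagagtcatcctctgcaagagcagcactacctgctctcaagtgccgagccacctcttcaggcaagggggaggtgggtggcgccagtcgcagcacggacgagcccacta
Uhrf1, the second start, chr17:56304063-56304312, plus strand: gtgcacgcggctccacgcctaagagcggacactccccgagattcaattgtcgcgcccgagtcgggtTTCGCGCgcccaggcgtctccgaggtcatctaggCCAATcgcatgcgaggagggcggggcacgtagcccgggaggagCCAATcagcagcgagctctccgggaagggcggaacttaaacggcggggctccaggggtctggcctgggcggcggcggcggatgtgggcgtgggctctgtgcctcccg
Ezh2, chr6:47595031-47595280, minus strand: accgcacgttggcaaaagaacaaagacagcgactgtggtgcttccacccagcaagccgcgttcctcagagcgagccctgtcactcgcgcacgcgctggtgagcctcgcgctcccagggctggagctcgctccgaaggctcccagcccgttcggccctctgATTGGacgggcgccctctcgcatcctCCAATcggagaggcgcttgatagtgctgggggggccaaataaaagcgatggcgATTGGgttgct
Ezh1, chr11:101226464-101226713, minus strand: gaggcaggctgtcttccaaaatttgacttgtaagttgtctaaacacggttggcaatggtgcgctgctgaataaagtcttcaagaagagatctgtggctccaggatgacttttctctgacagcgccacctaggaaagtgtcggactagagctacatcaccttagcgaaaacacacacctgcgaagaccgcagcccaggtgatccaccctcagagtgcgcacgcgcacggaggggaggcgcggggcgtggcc
Tet2, chr3:133544391-133544640, minus strand: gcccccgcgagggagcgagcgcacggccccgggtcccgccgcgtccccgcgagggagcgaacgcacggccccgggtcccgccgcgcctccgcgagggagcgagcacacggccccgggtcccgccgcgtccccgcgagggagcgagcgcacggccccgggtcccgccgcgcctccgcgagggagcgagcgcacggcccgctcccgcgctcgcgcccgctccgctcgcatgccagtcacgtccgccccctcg
Among all 32851 RefSeq promoters, 7.89% held an E2F core, 16.0% the TTTGAA letters, 33.8% at least 1 CCAAT box and 2.79% at least 3. Ezh2 had 3 CCAAT boxes and no other match. The first Dnmt1 start had 4 CCAAT boxes and 1 TTTGAA, and the second had no match. The last Dnmt1 start, not shown, had 2 E2F cores and 3 CCAAT boxes, of which a pair overlaps. Of the 250 bases before it 166 lie in annotated exons of the gene. Uhrf1 had an E2F core before each of its 2 starts, with 1 CCAAT box at the first, not shown, and 2 at the second. Suz12 held 1 of each, Eed 2 TTTGAA and Dnmt3b 1 TTTGAA. Ezh1, Tet2, Tet1 and the 3 starts of Dnmt3a had no match, which says only that these letters are not in these windows. CpG counts ran from 2 at the first Dnmt1 start and 14 at Ezh1 to 23 at Ezh2 and 51 at Tet2, against a median of 6 over all promoters. FPKM are given per gene, so the start in use was not measured.

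Calls were made between suffixes and none between genotypes. In 3dai against no suffix 5 of the 9 tested genes rose in p53WT (31.8% of all tested genes rose) and 1 fell (20.9%), and in p53KO 6 rose (30.4%) and 2 fell (22.7%). In G2 against no suffix 3 rose in p53WT (22.1%) and 0 fell (5.39%), and in p53KO 5 rose (22.5%) and 0 fell (7.06%). These shares of rises lie above the background and those of falls near or below it, as counts over 9 genes with no test. In p53KO against p53WT 0 of 9 were called at any of the 3 suffix levels (none, 3dai and G2), where 0.00772%, 0.0849% and 0.0695% of all genes were. By limma 0 of these genes had an unadjusted p under 0.05 in any of the 3. Without the 3 libraries that stood apart 7 and 8 genes were called in 3dai and 3 and 4 in G2, in p53WT and p53KO, and 0 between genotypes.

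**Figure D1:**
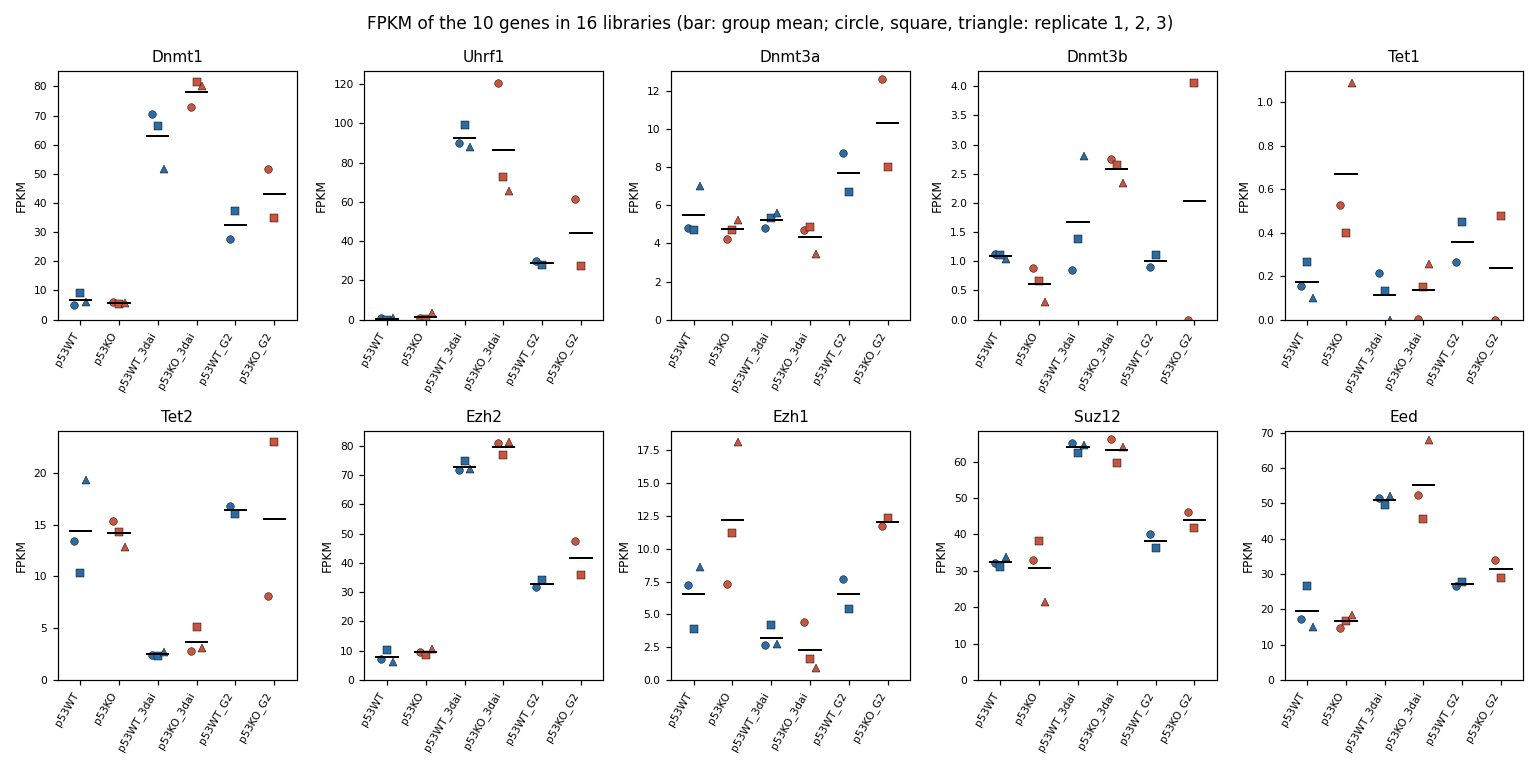
FPKM (vertical axis, linear, a scale of its own in each panel) of the 10 genes by group, with a point per library and a bar at the group mean. Dnmt1, Uhrf1 and Ezh2 are lowest with no suffix, highest in 3dai and between in G2, while Tet2 is lowest in 3dai, at 2.30 to 5.16 FPKM.

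Dnmt1 and Uhrf1, the pair that maintains methylation, rose in both genotypes. Dnmt1 was at 4.97, 9.15 and 6.01 FPKM in p53WT and 6.03, 5.23 and 5.59 in p53KO. The p53WT_3dai libraries held 70.7, 66.4 and 51.8 FPKM, and those of p53KO_3dai 72.9, 81.6 and 80.2. For p53WT_G2 the values were 27.6 and 37.2, and for p53KO_G2 51.8 and 34.7. Each 3dai and G2 library lay above all 6 libraries with no suffix. The differences from no suffix were 3.08 ± 0.23 (SE) in p53WT and 3.58 ± 0.23 in p53KO for 3dai, and 2.14 ± 0.25 and 2.72 ± 0.25 for G2 (limma, adjusted p 4.11e-08, 8.36e-09, 2.20e-05 and 2.21e-06).

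Uhrf1 had the largest differences from no suffix of the 9 tested genes, in 3dai and in G2. With no suffix it was at 0.631, 0 and 0.590 FPKM in p53WT and 0.737, 0.244 and 3.16 in p53KO, where the value of 3.16 is that of replicate 3. The p53WT_3dai libraries held 90.0, 99.3 and 88.1 FPKM and those of p53KO_3dai 121, 72.7 and 65.8. For p53WT_G2 the values were 30.0 and 27.8, and for p53KO_G2 61.4 and 27.4. The groups with and without a suffix did not overlap, and p53KO_G2 replicate 1 stood above the other G2 libraries. Uhrf1 rose by 6.09 ± 0.40 (SE) and 5.34 ± 0.40 in 3dai, and by 4.44 ± 0.45 and 4.34 ± 0.45 in G2, in p53WT and p53KO (limma, adjusted p 1.18e-08, 4.43e-08, 4.50e-06 and 5.65e-06). With no suffix its level was below that of Dnmt1 in every library, and in 3dai it was above Dnmt1 in 4 of 6.

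The writers of new methylation moved less. Dnmt3a lay between 3.46 and 7.01 FPKM in the 12 libraries with no suffix and of 3dai, whose ranges overlapped. The G2 values were 8.75 and 6.67 for p53WT_G2 and 12.6 and 8.02 for p53KO_G2, and both p53KO_G2 libraries lay above every library with no suffix. The rise in p53KO_G2 was 0.95 ± 0.29 (SE, limma, adjusted p = 0.0210), and the p53WT_G2 difference was not called. The rise was not called without p53KO replicate 1 (limma, adjusted p = 0.0614) or with only the groups compared (0.0774). Nor was it called under quantile normalization (0.237) or median-of-ratios scaling (0.164). It was 0.66 without p53KO_G2 replicate 1 and 0.72 without the 3 libraries that stood apart, and not called in either. Both of those fits leave a single library in p53KO_G2. Over those settings and the other libraries left out the adjusted p ran up to 0.237.

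Dnmt3b was low throughout, at 1.04 to 1.13 FPKM in p53WT, 0.297 to 0.889 in p53KO, 0.848 to 2.80 in p53WT_3dai and 2.35 to 2.75 in p53KO_3dai. In p53KO_G2 the libraries were at 0 and 4.06 FPKM, the lowest and the highest value of the gene, and in p53WT_G2 at 0.899 and 1.10. Dnmt3b rose in p53KO_3dai against p53KO by 1.17 ± 0.46 (SE, limma, adjusted p = 0.0422), and that call was lost whichever of the 6 libraries was left out (0.0567 to 0.118). It was also lost with a pseudocount of 0.1 (0.104), with no filter on low values (0.0595) and under median-of-ratios scaling (0.0666). The p53KO_G2 difference from p53KO was called without p53KO_G2 replicate 1 (1.66, limma, adjusted p = 0.0170), and that from p53KO_3dai, in the other direction, without p53KO_G2 replicate 2 (-1.84, 0.0141). Dnmt1 made up 42.7% to 61.2% of the summed FPKM of the 3 methyltransferases with no suffix, 86.0% to 93.3% in 3dai and 74.1% to 82.7% in G2. These shares did not overlap between the 3 conditions.

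Of the oxidising enzymes, Tet2 fell in 3dai and Tet1 was close to the floor. Tet1 was at 0 to 1.09 FPKM, and only p53KO replicate 3 reached 1. Tet2 was at 13.5, 10.4 and 19.3 FPKM in p53WT and 15.3, 14.3 and 12.9 in p53KO. The p53WT_3dai libraries held 2.41, 2.30 and 2.71 FPKM and those of p53KO_3dai 2.82, 5.16 and 3.08, below every other library of the study. Tet2 fell by 2.11 on the log2 scale (SE 0.33) in p53WT and by 1.72 (SE 0.33) in p53KO (limma, adjusted p 7.26e-05 and 4.21e-04). The G2 values were 16.8 and 16.1 for p53WT_G2 and 8.14 and 23.0 for p53KO_G2, and the libraries of p53KO_G2 lay on both sides of those with no suffix. Neither G2 difference from no suffix was called.

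The PRC2 genes split between the paralogs of the catalytic subunit. Ezh2 was at 7.05, 10.4 and 6.12 FPKM in p53WT and 9.52, 8.68 and 10.4 in p53KO. It was at 71.7, 74.9 and 72.1 in p53WT_3dai, 81.0, 76.8 and 81.3 in p53KO_3dai, 31.7 and 34.2 for p53WT_G2, and 47.3 and 35.9 for p53KO_G2. The 3 conditions did not overlap in either genotype. Ezh2 rose by 3.09 ± 0.19 (SE) and 2.94 ± 0.19 in 3dai and by 1.97 ± 0.21 and 2.01 ± 0.21 in G2 (limma, adjusted p 6.18e-09, 9.36e-09, 8.43e-06 and 7.13e-06).

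Ezh1, the paralog known from cells that do not divide, was at 7.24, 3.87 and 8.61 FPKM in p53WT and 7.32, 11.2 and 18.1 in p53KO. The p53WT_3dai libraries held 2.69, 4.18 and 2.71 FPKM and those of p53KO_3dai 4.40, 1.56 and 0.937. For p53WT_G2 the values were 7.67 and 5.42, and for p53KO_G2 11.8 and 12.3. All 3 p53KO_3dai libraries lay below all 3 of p53KO, and p53WT_3dai overlapped p53WT through p53WT replicate 2. The fall in p53KO was 2.06 on the log2 scale, a difference of -2.06 ± 0.40 (SE, limma, adjusted p = 4.94e-04), and the p53WT difference of -0.81 was not called (0.102). That p53WT difference was called under quantile normalization (-1.02, limma, adjusted p = 0.0321), under median-of-ratios scaling (-1.14, 0.0245), without p53WT replicate 2 (-1.10, 0.0461) and without the 3 libraries that stood apart (-0.81, 0.0430). With any other library left out it was not (0.0922 to 0.287). The difference between these differences, the interaction of p53KO with 3dai, was -1.25 (95% interval -2.45 to -0.04, limma, unadjusted p = 0.0442, adjusted p = 0.820) and was not called.

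Ezh1 made up 27.2% to 63.5% of the summed FPKM of Ezh1 and Ezh2 with no suffix, 1.14% to 5.29% in 3dai and 13.7% to 25.6% in G2. The lowest share with no suffix, 27.2% in p53WT replicate 2, was above the highest in G2. Their sum was 14.2 to 28.5 FPKM with no suffix, where the highest value is p53KO replicate 3, against 74.4 to 85.4 in 3dai and 39.3 to 59.1 in G2. The shares describe RNA in these libraries and not protein.

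**Figure D2:**
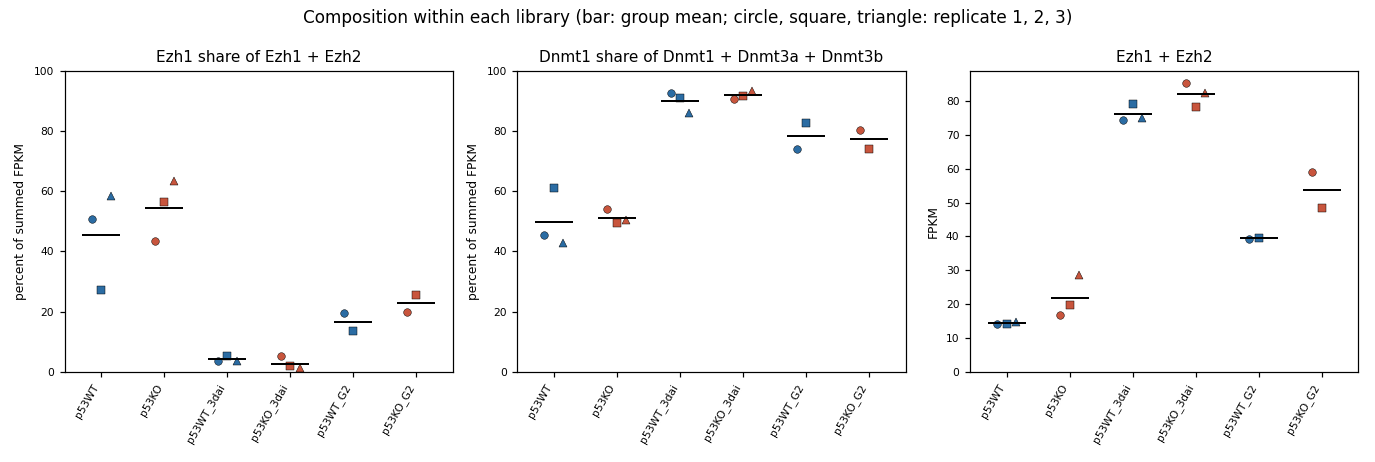
Percent of summed FPKM held by Ezh1 (left) and by Dnmt1 (middle), and the sum of Ezh1 and Ezh2 in FPKM (right), by group, with a point per library and a bar at the group mean. The Ezh1 share is 27.2% to 63.5% with no suffix and at most 5.29% in 3dai, while the Dnmt1 share is at least 86.0% in 3dai.

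Suz12 and Eed, the core subunits that both paralogs share, differed less from no suffix than Ezh2 did, in 3dai and in G2. In p53WT the differences of Ezh1 from no suffix were smaller still. Suz12 was at 32.0, 31.0 and 33.8 FPKM in p53WT and 32.9, 38.2 and 21.4 in p53KO, and at 59.7 to 66.2 in the 6 libraries of 3dai. It rose by 0.97 ± 0.19 (SE) in p53WT and 1.05 ± 0.19 in p53KO (limma, adjusted p 4.42e-04 and 2.14e-04). The G2 values were 40.2 and 36.1 for p53WT_G2 and 46.2 and 41.8 for p53KO_G2, each above the libraries of its own genotype with no suffix, with neither difference called. The p53KO_G2 difference was called without p53KO replicate 2 (0.70, limma, adjusted p = 0.0240). With no suffix Suz12 stood at 0.751 to 2.30 times the sum of Ezh1 and Ezh2, and in 3dai at 0.761 to 0.873 times.

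Eed was at 17.1, 26.5 and 15.0 FPKM in p53WT and 14.7, 16.8 and 18.3 in p53KO, and at 45.6 to 67.9 in 3dai. Its rise in 3dai was 1.38 ± 0.21 (SE) and 1.66 ± 0.21 (limma, adjusted p 6.06e-05 and 9.66e-06), with no overlap between the groups. The G2 values were 26.6 and 27.8 for p53WT_G2 and 34.1 and 28.8 for p53KO_G2. The rise in p53KO_G2 was 0.88 ± 0.24 (SE, limma, adjusted p = 0.0110), and the p53WT_G2 difference of 0.50 was not called (0.134), except without p53WT replicate 2 (0.73, adjusted p = 0.0253). The p53KO_G2 call was lost without p53KO_G2 replicate 1 (adjusted p = 0.102), and under quantile normalization (0.113) and median-of-ratios scaling (0.166). The median of all tested genes was itself higher in G2, by 0.33 in p53WT and 0.31 in p53KO, and in 3dai by 0.23 and 0.14. Those shifts are part of every difference given on this scale.

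**Figure D3:**
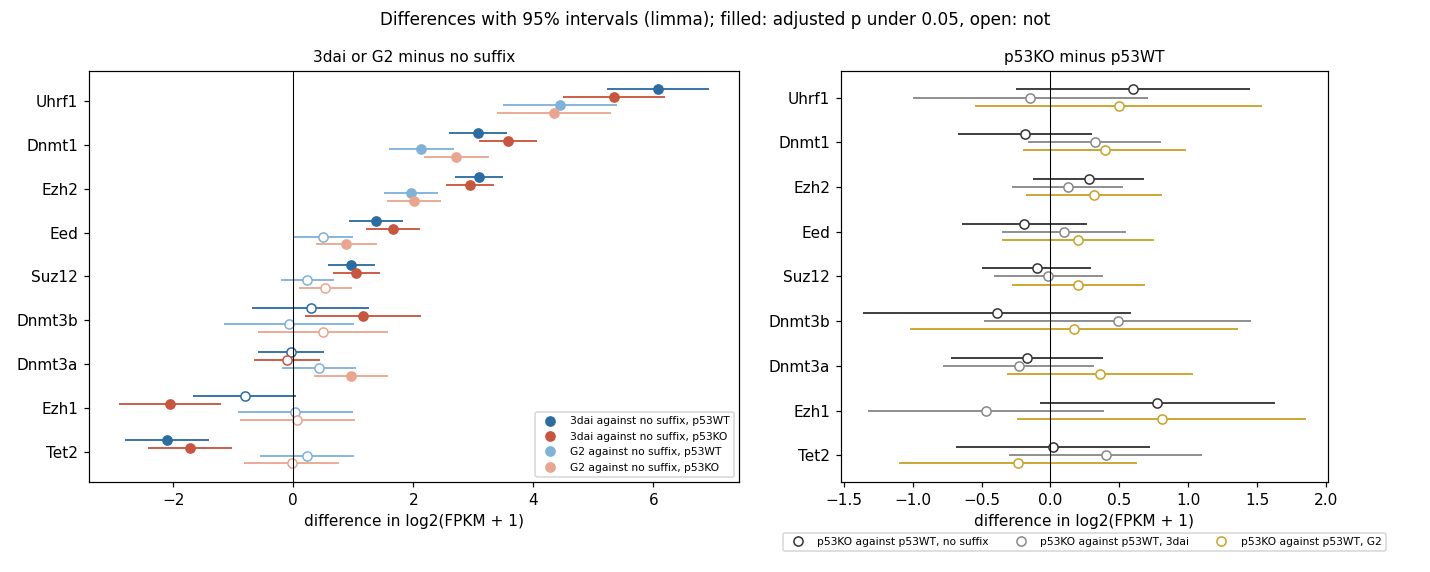
Differences in log2(FPKM + 1) with 95% intervals from limma for the 9 tested genes, at the left 3dai or G2 minus no suffix in each genotype, and at the right p53KO minus p53WT in each condition. Filled points were called at an adjusted p under 0.05, which none on the right was, and the Uhrf1 differences of 4.34 to 6.09 at the left are the largest of the 9 genes.

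G2 and 3dai were then compared directly. In p53WT 1 of 9 genes was higher in G2 (13.9% of all tested genes were) and 5 were lower (6.70%), and in p53KO 3 were higher (16.1%) and 3 lower (7.10%). Dnmt1 was lower in G2 by -0.94 and -0.87, Ezh2 by -1.12 and -0.93, and Eed by -0.88 and -0.78, in p53WT and p53KO (limma, adjusted p between 0.00171 and 0.0271). Tet2 was higher in G2 by 2.33 and 1.70 (limma, adjusted p 4.95e-04 and 0.00429). Uhrf1 (-1.64) and Suz12 (-0.73) were lower in p53WT_G2 than in p53WT_3dai, and Ezh1 (2.12) and Dnmt3a (1.06) were higher in p53KO_G2 than in p53KO_3dai. The p53KO differences of Uhrf1 and of Suz12 (-0.51) were not called (limma, adjusted p 0.120 and 0.0871). Both were called without the 3 libraries that stood apart (-1.30 and -0.55), a fit that leaves a single library in p53KO_G2. That of Suz12 was also called under median-of-ratios scaling (-0.61, limma, adjusted p = 0.0481). The p53WT call of Uhrf1 was lost with a pseudocount of 0.1 (-1.67, limma, adjusted p = 0.198).

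With 2 libraries in each G2 group many of these calls rested on single libraries. Tet2 and Ezh2 in p53WT and Ezh1 in p53KO were called whichever library was left out. In p53WT the Uhrf1 and Eed calls were lost without p53WT_G2 replicate 1 or 2, that of Suz12 without p53WT_3dai replicate 1 or p53WT_G2 replicate 1 or 2, and that of Dnmt1 without p53WT_3dai replicate 1 or p53WT_G2 replicate 1. The p53WT count fell from 6 to 2 without p53WT_G2 replicate 1 and to 3 without p53WT_G2 replicate 2. In p53KO the Tet2 and Ezh2 calls were lost without p53KO_G2 replicate 2, that of Dnmt3a without p53KO_3dai replicate 3 or p53KO_G2 replicate 1, and that of Dnmt1 without p53KO_3dai replicate 2 or 3 or p53KO_G2 replicate 2. The Eed call was lost without p53KO_3dai replicate 3 or p53KO_G2 replicate 1 or 2. The p53KO count fell from 6 to 3 without p53KO_3dai replicate 3 or p53KO_G2 replicate 2.

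The p53 genotype was compared within each condition. Ezh1 differed between p53KO and p53WT by 0.78 (95% interval -0.08 to 1.63) with no suffix, -0.47 (-1.32 to 0.39) in 3dai and 0.81 (-0.24 to 1.85) in G2. Dnmt1 differed by -0.19 (-0.67 to 0.30), 0.32 (-0.16 to 0.80) and 0.39 (-0.20 to 0.99), and Ezh2 by 0.28 (-0.12 to 0.68), 0.13 (-0.28 to 0.53) and 0.32 (-0.18 to 0.81). These intervals leave room for differences of the size shown at their ends, so a call that was missed does not show that the genotypes were alike.

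By the ranges of single libraries, 1 of 9 tested genes did not overlap between genotypes with no suffix (Dnmt3b, lower in p53KO), against 6.73% of all tested genes, with 3.99% higher and 2.74% lower. In 3dai 3 did not overlap (Dnmt1, Ezh2 and Tet2, each higher in p53KO_3dai), against 12.0% of all genes, with 5.07% higher and 6.91% lower. In G2 4 did not overlap (Ezh1, Ezh2, Suz12 and Eed, each higher in p53KO_G2), against 31.2% of all genes, with 15.0% higher and 16.1% lower. Tet1, which was not tested, was at 0.399 to 1.09 FPKM in p53KO and 0.0985 to 0.264 in p53WT. No interaction of p53KO with 3dai or with G2 was called for the 9 genes, where 0% and 0.0232% of all genes were. By limma Ezh1 in 3dai was the only interaction of the 9 genes with an unadjusted p under 0.05.

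The levels were set beside a list of 16 genes of cell division, among them Top2a, Ccna2, Birc5 and Mcm5. The largest rises were those of Birc5 (7.06) and Top2a (6.36) in p53WT_3dai and of Ccna2 (6.89) and Top2a (6.89) in p53KO_3dai, and the same 3 genes led in G2. Of the 16 genes 16 rose in 3dai in each genotype and 15 in G2, with a median difference of 4.92 and 4.62 in 3dai and 3.15 and 3.33 in G2. Their mean log2(FPKM + 1) was 1.85 to 2.52 with no suffix, 6.66 to 6.79 in 3dai and 5.23 to 5.89 in G2. Between G2 and 3dai 15 of the 16 were lower in p53WT_G2 (9 without p53WT_G2 replicate 2) and 13 in p53KO_G2 (3 without p53KO_G2 replicate 2). The highest value with no suffix was that of p53KO replicate 3, the library in which Uhrf1 reached 3.16 FPKM. The highest in G2 was that of p53KO_G2 replicate 1, which also had the higher Uhrf1, Dnmt1 and Ezh2 of its group. The part of this in the differences was not tested.

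**Figure D4:**
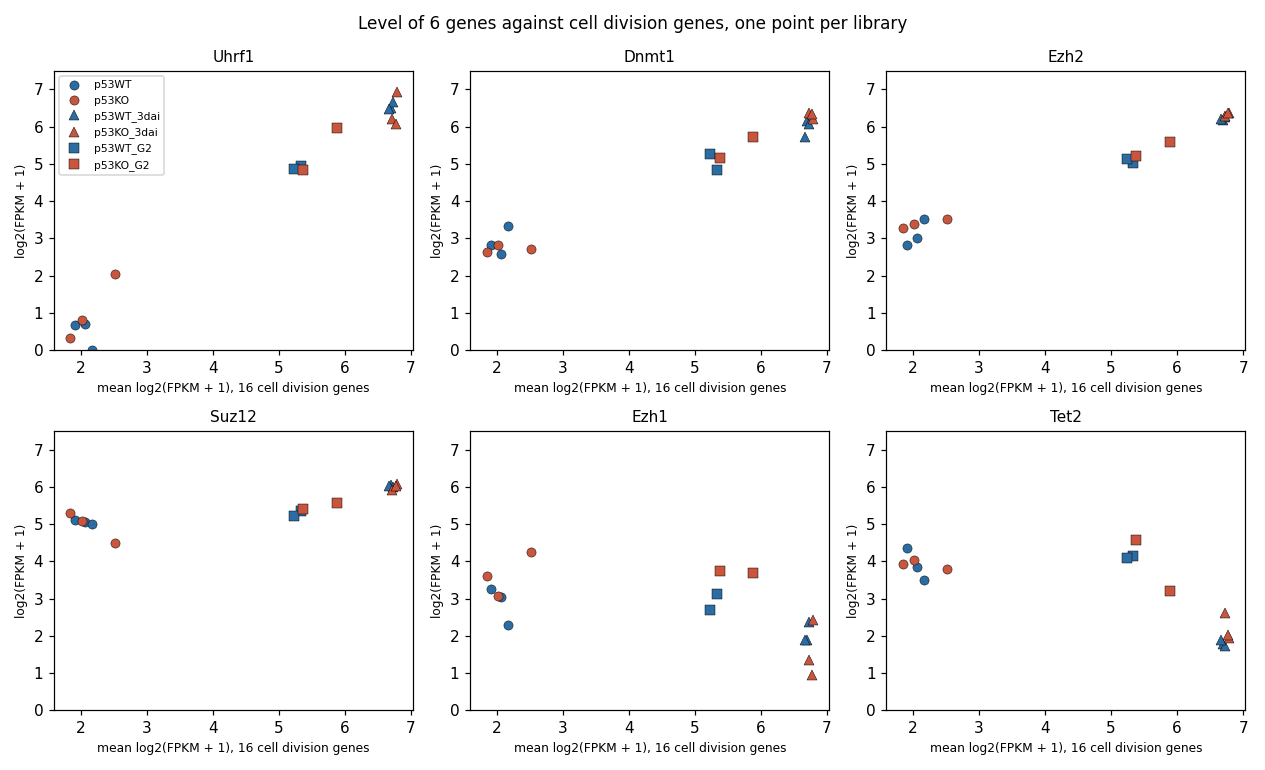
Level of 6 genes (vertical axis, log2(FPKM + 1)) against the mean log2(FPKM + 1) of 16 cell division genes (horizontal axis), with a point per library. Uhrf1, Dnmt1 and Ezh2 lie lowest where the cell division mean is 1.85 to 2.52 and highest where it is 6.66 to 6.79, and Tet2 lies lowest in 3dai. Ezh1 has its lowest group means in 3dai. Its value in p53WT replicate 2 (3.87 FPKM) lies below those of p53WT_3dai replicate 2 (4.18) and p53KO_3dai replicate 1 (4.40). The libraries fall into separate clusters by condition, so no correlation is given.

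Genes with profiles most like these were sought among 12171 genes by the root mean square difference of log2(FPKM + 1) after centring each gene over the 16 libraries. Nearest to Dnmt1 were Mms22l (0.252), Pole (0.266), the catalytic subunit of a replicative DNA polymerase, and Xpo1 (0.273), a nuclear export receptor, and Ezh2 ranked 5 (0.277). Nearest to Uhrf1 were Nuf2 (0.430) of the kinetochore, Cdca8 (0.431) of the chromosomal passenger complex and the cyclin Ccnb1 (0.469). Nearest to Ezh2 were Xpo1, Cdk4 (0.209), a kinase of the early cell cycle, and Hirip3 (0.210). Suz12 lay nearest to Mcmbp (0.123), Hspa9 (0.139) and Ptma (0.145). Ezh1 lay nearest to Fbln2 (0.346), a matrix protein, and Ptgfrn (0.358), and Tet2 to Bmp1 (0.283), Sntb2 (0.298) and Dpy19l3 (0.304). All 16 libraries share the suffix pattern, so these distances describe it and nothing more.

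Other genes of the same pathways moved in both directions. Of 18 further DNA methylation genes 16 were tested, and in 3dai 4 rose and 5 fell in p53WT and 3 rose and 6 fell in p53KO (median difference -0.08 and 0.08, against 0.23 and 0.14 over all genes). Over all tested genes 31.8% rose and 20.9% fell in p53WT_3dai, and 30.4% rose and 22.7% fell in p53KO_3dai. Each list count in 3dai below is to be read beside these shares, and no list was tested against them. Hells, a chromatin remodeller needed for methylation, rose from 0.533 to 65.2 mean FPKM in p53WT_3dai and from 0.475 to 93.8 in p53KO_3dai, and to 20.3 and 23.1 in G2. Mbd3, a subunit of the NuRD complex, rose from 37.9 to 115 and from 37.4 to 109 in 3dai. Gadd45a, a stress gene linked to demethylation, fell from 468 to 53.7 and from 494 to 43.6 in 3dai, and Zbtb4, which binds methylated DNA, from 10.2 to 0.987 and from 12.0 to 1.00.

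The accessory and second Polycomb complexes were mixed as well. Of 8 PRC2 partners 4 rose and 2 fell in 3dai in each genotype (median 0.65 and 0.68). Phf19, which ties PRC2 to chromatin, rose from 0.406 to 10.2 FPKM in p53WT_3dai and from 0.219 to 10.2 in p53KO_3dai, and the histone chaperone Rbbp4 from 47.3 to 137 and from 45.3 to 126. Phf1, a relative of Phf19, fell from 15.4 to 5.33 and from 16.6 to 3.25, and Jarid2 from 9.13 to 3.28 and from 8.22 to 3.76, the last of these not called without p53KO_3dai replicate 3. Of 21 genes of Polycomb repressive complex 1, 11 rose and 3 fell in p53WT_3dai and 9 rose and 4 fell in p53KO_3dai, 8 in all in p53KO_3dai without the 3 libraries named above. Cbx2, a chromatin reader of that complex, rose from 0.251 to 6.59 and from 0.153 to 3.62, and L3mbtl2 from 2.31 to 16.0 and from 3.03 to 11.7. Scmh1 fell from 11.9 to 4.57 and Cbx6 from 7.90 to 3.79 in p53WT_3dai, and Rybp from 15.8 to 4.52 and Ring1, a catalytic subunit, from 16.3 to 6.22 in p53KO_3dai.

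Of 5 genes listed here as opposing Polycomb, a role that is not settled for each, 2 rose and 1 fell in p53WT_3dai. In p53KO_3dai 1 rose and 1 fell, where array weights gave 4 calls in place of 2. Kdm6b, a demethylase of the lysine 27 mark, stood at 88.4, 84.2 and 134 FPKM in p53WT and 95.7, 106 and 86.2 in p53KO. It was at 10.8 to 14.2 in p53WT_3dai and 6.10 to 17.0 in p53KO_3dai, with 39.0 and 31.0 for p53WT_G2 and 22.3 and 44.0 for p53KO_G2. The 3 conditions did not overlap. Kdm6b fell by 2.86 on the log2 scale in p53WT_3dai and by 3.25 in p53KO_3dai (limma, adjusted p 2.87e-06 and 7.85e-07), and more weakly in G2 (adjusted p 0.00605 in p53WT and 0.00417 in p53KO). The G2 calls were lost without p53WT_G2 replicate 2 and without p53KO_G2 replicate 1. Asxl2, a partner of the deubiquitinase Bap1, rose from 1.92 to 7.10 in p53WT_3dai and from 1.98 to 8.09 in p53KO_3dai, and Bap1 itself from 22.7 to 32.8 in p53WT_3dai.

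In G2 against no suffix 3 of the 16 further DNA methylation genes rose and 1 fell in p53WT, and 4 rose and 2 fell in p53KO. Over all tested genes 22.1% rose and 5.39% fell in p53WT_G2, and 22.5% rose and 7.06% fell in p53KO_G2. No list was tested against these shares. Of the PRC2 partners 2 and 3 rose, and of the genes of Polycomb repressive complex 1 there were 5 rises in p53WT and 7 rises and 1 fall in p53KO. Beside Hells, the genes called whichever library was left out were Phf19 (3.99 FPKM in p53WT_G2 and 4.04 in p53KO_G2), Rbbp4 (98.4), Cbx2 (5.37) and L3mbtl2 (9.74) in p53KO_G2 and Asxl2 (8.02) in p53WT_G2. The calls of Tet3 and Cbx2 in p53WT were lost without p53WT_G2 replicate 1, and those of Rbbp4 and L3mbtl2 in p53WT without p53WT_G2 replicate 2. The call of Asxl2 in p53KO was lost without p53KO_G2 replicate 2. In p53WT the Gadd45a call was lost without any of its 5 libraries, 4 calls of DNA methylation genes became 2 and 5 of Polycomb repressive complex 1 became 2 without p53WT_G2 replicate 1 or 2, and 2 of PRC2 partners became 1 without p53WT_G2 replicate 2. In p53KO the Gadd45a call was lost without p53KO replicate 3 or p53KO_G2 replicate 1, that of Tet3 without p53KO replicate 2 or 3 or p53KO_G2 replicate 2, that of Zbtb4 without p53KO replicate 2 or 3 or either p53KO_G2 library, and that of Rybp without p53KO replicate 1 or 2 or either p53KO_G2 library. DNA methylation genes in p53KO fell from 6 calls to 3 without p53KO replicate 3 or p53KO_G2 replicate 1. Those of Polycomb repressive complex 1 fell from 8 to 5 without p53KO replicate 1 or p53KO_G2 replicate 2, to 3 without p53KO replicate 3 and to 2 without p53KO_G2 replicate 1. They also depended on the model, with 5 under quantile normalization, median-of-ratios scaling or array weights, 4 with the replicate number as a block, and 2 with only the groups compared or without the 3 libraries that stood apart. In p53WT quantile normalization gave 7 calls of DNA methylation genes in place of 4, and 2 calls of PRC2 partners became 1 under quantile normalization, median-of-ratios scaling or a filter at a mean of 5 FPKM. DNA methylation genes in p53KO had 2 calls without the 3 libraries.

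Levels of 3 inhibitors of cyclin-dependent kinases that are textbook Polycomb targets were read as well. In 3dai 2 of 3 rose in p53WT and 1 in p53KO, and in G2 all 3 rose in each genotype, of which only Cdkn2a was called in p53WT without p53WT_G2 replicate 2. Cdkn2a was at 1.40, 1.15 and 0 FPKM in p53WT and 1.40, 0 and 0 in p53KO. The p53WT_3dai libraries held 7.27, 9.93 and 25.9 FPKM and those of p53KO_3dai 20.0, 15.2 and 13.3. For p53WT_G2 the values were 76.1 and 58.7, and for p53KO_G2 96.4 and 77.3. The 3 conditions did not overlap, with G2 the highest, whereas Ezh2 was highest in 3dai. Cdkn2a rose by 2.96 ± 0.45 (SE) and 3.66 ± 0.45 in 3dai and by 5.29 ± 0.51 and 6.03 ± 0.51 in G2 (limma, adjusted p 5.94e-05, 7.34e-06, 2.92e-06 and 7.20e-07). FPKM of the gene do not separate its p16 and p19 transcripts.

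Cdkn1c rose in G2, and its differences in 3dai (-0.30 and -0.46) were not called. It was at 14.6 to 39.6 FPKM in the 6 libraries with no suffix, 8.66 to 37.0 in 3dai, 110 and 183 for p53WT_G2 and 143 and 214 for p53KO_G2. The differences of G2 from no suffix were 2.36 ± 0.50 (SE) in p53WT and 3.07 ± 0.50 in p53KO (limma, adjusted p 0.00264 and 3.52e-04), and from 3dai 2.66 and 3.54 (0.00173 and 2.05e-04). Cdkn2b rose in p53WT_3dai from 1.47 to 8.99 mean FPKM (limma, adjusted p = 0.0161), a call lost without p53WT replicate 2 or 3. In p53KO_3dai Cdkn2b was at 13.4, 0.188 and 0.850 FPKM, with replicate 1 far above the others, and was not called. In G2 it was at 14.6 and 14.0 for p53WT_G2 and 11.2 and 9.66 for p53KO_G2, above all libraries with no suffix (limma, adjusted p 0.0141 and 0.0324), and the p53WT_G2 call was lost without p53WT_G2 replicate 1 or 2. Between the genotypes in 3dai Cdkn2b differed by -1.65, p53KO_3dai minus p53WT_3dai, and was not called (limma, adjusted p = 0.460). It was called as lower in p53KO_3dai without p53KO_3dai replicate 1 (-2.74, adjusted p = 0.00289), with array weights (-2.32, 0.0150) and without the 3 libraries that stood apart (-2.74, 0.00291), and over all alternatives the adjusted p ran from 0.00289 to 1. Its interaction of p53KO with 3dai (-1.66, limma, adjusted p = 0.831) was called without p53KO_3dai replicate 1 (-2.75, 0.0437). Cdkn2a and Cdkn1c were not called between the genotypes.

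**Figure D5:**
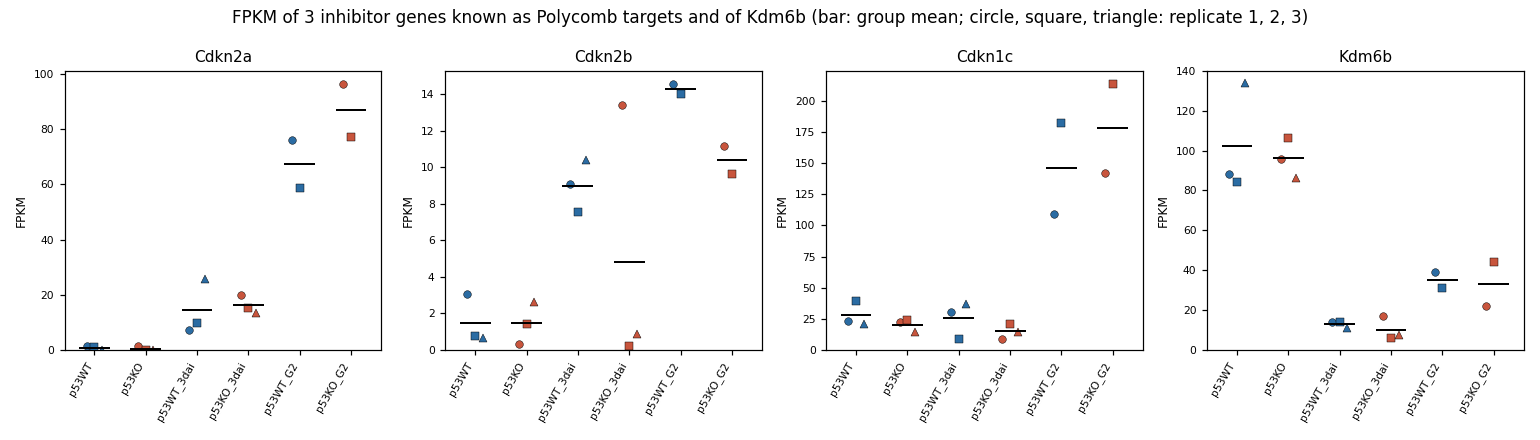
FPKM (vertical axis, linear, a scale of its own in each panel) of Cdkn2a, Cdkn2b, Cdkn1c and Kdm6b by group, with a point per library and a bar at the group mean. Cdkn2a reaches 58.7 to 96.4 FPKM in G2, and Kdm6b is highest with no suffix, at 84.2 to 134 FPKM.

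A list of 12 germline genes known to be silenced by DNA methylation, among them Dazl, Ddx4 and Sycp3, stayed near 0. None of the 12 passed the filter, and the highest value in any library was 1.12 FPKM. Their summed FPKM were at most 2.24 in a library.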

How the data were processed

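The authors deposited FPKM, in 1 table per library that also gives each gene's status and position. STAR, Cufflinks, Cuffdiff and mm10 are named in the submitters' processing notes, and their versions are not given. Per the labels' protocols RNA came from a Qiagen micro kit and went into directional libraries. How reads of overlapping genes were assigned is not stated.

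Computed here from the FPKM were log2(FPKM + 1) values and a limma 3.58.1 model (R 4.3.3, variance trend) of the 6 groups over all 16 libraries. Genes needed at least 1 FPKM in at least 2 libraries (12954 of 24341). Benjamini-Hochberg adjustment ran over every gene tested, with 0.05 as the threshold. An interaction subtracts the p53KO difference with no suffix from the one in 3dai or G2. The model was tested on simulated data. All 160 values of the 10 genes carried the status OK. An FPKM of 0 does not show absence, since a failed estimate would look alike. No 2 libraries were identical.

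The 10 genes, the 14 other gene lists and the comparisons were chosen with earlier results of these data known. From each pathway list at most 2 rises and 2 falls are named per comparison, by size among the called, and genes named for G2 against 3dai are limited to the 10 genes, the inhibitors and counts. The 250 bases before each start come from RefSeq (GRCm38.p6), in which all 10 symbols matched. Of the genes with profiles like that of Ezh1, 1 is not reported here. Replicate numbers of different groups were not used as pairs. Settings varied in turn were the pseudocount (0.1), the filter on low values (none, or a mean of 5 FPKM), the scaling (quantile or median-of-ratios), array weights, the groups in the model, a replicate block, values with another status (set to missing) and each single library (left out). Leaving out 3 libraries together was added after seeing the data.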

Additional observations from a re-analysis of the deposited data

How the results depend on the processing

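Of the 34 differences of the 9 genes that were called, 32 were still called with a pseudocount of 0.1, 33 with no filter, 31 under quantile normalization, 31 under median-of-ratios scaling, 34 with array weights, 30 with only the groups compared, 34 with values of other status missing, and 31 without p53KO replicate 3, p53KO_3dai replicate 1 and p53KO_G2 replicate 1. All values of these genes carried the status OK, so setting other statuses to missing left their own values unchanged. With a mean of at least 5 FPKM all 33 that could be tested were called. Over 184 refits with 1 library left out 156 were called, and none of the called differences changed sign in any setting. For G2 against no suffix in p53KO the number of genes called was 3 in place of 5 under both quantile normalization and median-of-ratios scaling, which lost Dnmt3a and Eed. For G2 against 3dai in p53KO it was 3 in place of 6 with only the groups compared, 3 to 6 with 1 library left out, and 7 without the 3 libraries together. For G2 against 3dai in p53WT it was 2 to 6 with 1 library left out, and the cause of these losses was not tested. The sign changed only in differences that were not called. For Dnmt3b in p53KO, G2 against no suffix was -0.052 with a pseudocount of 0.1 and -0.67 to 1.66 with 1 library left out, and G2 against 3dai was 0.53 without the 3 libraries and -1.84 to 0.50 with 1 left out. For Dnmt1 in p53KO against p53WT with no suffix the range was -0.35 to 0.031. The numbers of all genes called between the genotypes depended on the setting, from 0 to 5 with no suffix, from 2 to 804 in 3dai and from 1 to 22 in G2, and 0 of the 9 genes was called in any of them.

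Correlations of same-numbered deviations from the group means ran from -0.16 to 0.13. With 2 or 3 libraries in a group they cannot show whether samples of different groups were paired. With the replicate number as a block 33 of the 34 differences were called, and Eed in G2 against 3dai in p53KO was not (-0.76, limma, adjusted p = 0.0535). Depth is unknown, so no counting interval can be given, and values under 1 FPKM, as for Tet1, Uhrf1 with no suffix and Dnmt3b, are the least certain. Of the 92 named differences of list genes 406 of 496 refits with 1 library left out were called and none changed sign.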
